A study of Mus musculus with 4 samples.

Results

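The p53 axis was followed in mouse embryonic stem cells (ESCs) through 10 genes, Trp53, Mdm2, Mdm4, Cdkn2a, Cdkn1a, Ccng1, Bbc3, Bax, Zmat3 and Trp53inp1. The members were chosen by name, as the rows of the gene expression table whose Ensembl identifier belongs to these symbols, and all 10 were found among the 14533 genes of the table. RNA had been sequenced from ESCs adapted for more than 20 days to medium with serum (serum ESCs) or to serum-free medium with the MEK inhibitor PD0325901 and the GSK3 inhibitor CHIR99021 (2i ESCs), both with the cytokine LIF. There were 2 libraries per condition, 4 in all, from cells sorted in late G1-phase per the sample labels. The study's figure legends also place its RNA comparison in late G1-phase, whereas the series text speaks of early G1-phase. The labels name neither the cell line nor a genetic change for these libraries, and the series text calls the replicates biological without saying that they came from separate cultures, so that p-values measure the spread between these libraries, part of which may be technical. In pooled cells, fewer cells with a transcript and less of it per cell cannot be told apart.

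The transcription factor p53, encoded by Trp53, is activated by DNA damage and other stress and switches on genes that halt the cell cycle, repair DNA or start cell death. In unstressed cells the protein is kept low by MDM2, a ubiquitin ligase that is itself a p53 target, together with the related protein MDM4, while ARF, a product of Cdkn2a, holds MDM2 back. Since p53 is controlled largely through its degradation, localization and modification, the RNA level of Trp53 and the activity of the protein are separate quantities, and only RNA was measured here. Mouse ESCs grown in serum are known to carry p53 without a firm arrest in G1-phase, whereas the study concluded that 2i ESCs have an active G1 restriction point. Among the proteins the study compared between serum and 2i were P21, a cell cycle inhibitor encoded by Cdkn1a, and P16, a product of Cdkn2a. Its western blots showed both almost only in 2i ESCs, mainly in late G1-phase, and they measured protein, not RNA.

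To show the letters that p53 is known to recognize at its targets, the p53 response-element consensus was searched within 2 kb on either side of each gene start in the mm9 genome (NCBIM37). The element is a pair of 10-base units, here allowed a gap of up to 1 base and up to 1 mismatch outside the cores, and it reads alike on both strands. The window and the mismatch limit were chosen after a wider scan had been seen. A match was found for 4 of the 10 genes (40.0%), against 178 of 12951 tested genes with a position (1.37%). The 4 matches are shown 5′ to 3′ on the strand of the gene, with the cores of the 2 units in capitals.
Cdkn1a: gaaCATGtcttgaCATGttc
Ccng1: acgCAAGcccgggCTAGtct
Zmat3: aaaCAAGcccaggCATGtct
Trp53inp1: aaaCATGtccaggaCTAGcct
The Cdkn1a element (chr17:29227873-29227892, plus strand, 1 mismatch) began 51 bases before the annotated gene start. That of Ccng1 (chr11:40568438-40568457, minus strand, 1 mismatch) lay in an intron, 356 bases after the start. Zmat3 carried its element in an intron as well (chr3:32263253-32263272, minus strand, 0 mismatches), 1328 bases after the start. In Trp53inp1 the element (chr4:11082259-11082279, plus strand, 0 mismatches, gap of 1 base) lay 1319 bases before the start. A match is a stretch of letters and not a measured binding site, and genes without one lack these letters in this window only.

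The 10 genes were detected in all 4 libraries and passed the filter on low values (a mean of 50 normalized counts in either condition), and none of them passed the test between serum and 2i. Genes were tested with limma on log2(normalized count + 1), where a normalized count is a gene's read count divided by the size factor of its library, and calls required a fold change of 2 with an adjusted p-value below 0.05. Of all 13005 genes tested, 0 (0.0%) were called higher in serum and 2 (0.0154%) higher in 2i. With the same fold change and an unadjusted p-value below 0.05, 386 genes (2.97%) were higher in serum and 390 (3.0%) in 2i, and again 0 of the 10 axis genes. On whole reads edgeR called 0 genes in either direction (0.0%) and DESeq2 called 73 (0.561%) higher in serum and 178 (1.37%) higher in 2i, with 0 axis genes among them. Both serum libraries were above both 2i libraries for 2 axis genes, Trp53 and Mdm2, and the reverse held for 0, whereas over all genes the shares were 20.5% and 19.4%. For a single gene an exact permutation test of 2 libraries against 2 reaches a smallest two-sided p of 0.333, and it was not used.

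The libraries held 18939401 to 26570098 whole reads, of which protein-coding genes took 46.9% in serum replicate 1, 76.3% in serum replicate 2, 57.8% in 2i replicate 1 and 66.3% in 2i replicate 2. The axis genes held from 154 to 8640 whole reads per library. The lowest, for Bbc3 in serum replicate 2, has an exact Poisson interval of 131 to 180 reads (95%), which covers counting error only. All 10 markers of ESCs were in the table, with summed normalized counts of 65856 and 78995 in serum and 83648 and 95435 in 2i. Markers of other cells had lower sums than the ESC markers in every library, or had no row analysed here. The 6 of 10 primitive endoderm markers in the table summed to 372 and 1782 in serum against 825 and 393 in 2i, with Cubn at 0 in at least 1 library, the 3 of 10 fibroblast markers to 271 and 235 against 289 and 201, and the 4 of 10 markers of differentiating cells to 386 and 183 against 397 and 277. The 10 G2/M-phase markers, in cells sorted for G1-phase, summed to 24239 and 34337 in serum against 15657 and 12455 in 2i. Both serum libraries were above both 2i libraries for 8 of the 10, against 20.5% of all genes tested. By limma 0 of the 10 were called, and 5 had an unadjusted p-value below 0.05, against 5.97% of all genes tested.

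**Figure D1:**
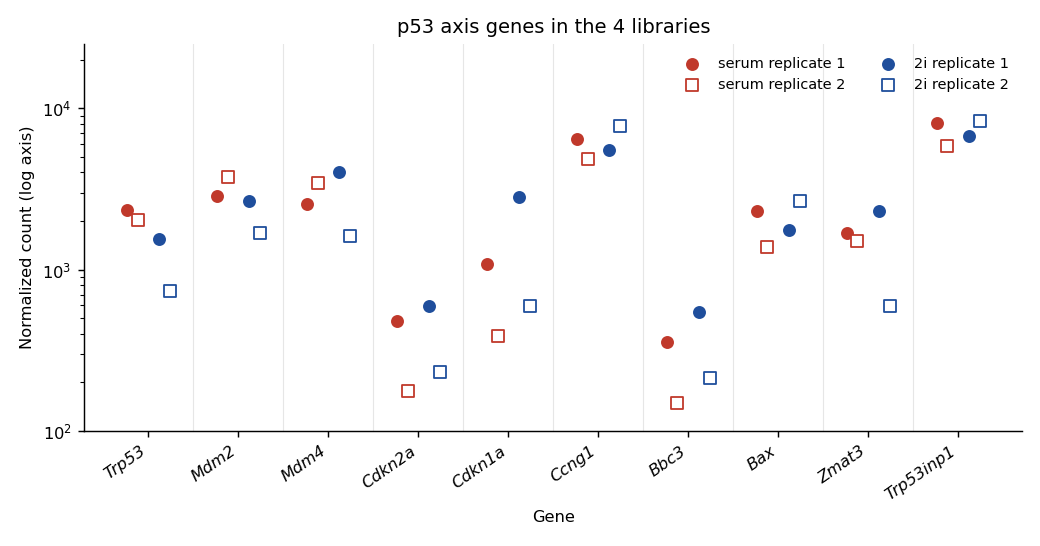
Normalized counts (log axis) of the 10 p53 axis genes, with serum libraries in red, 2i libraries in blue, circles for replicate 1 and open squares for replicate 2. The serum and 2i points are apart for Trp53 and Mdm2, and they overlap for the other 8 genes.

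Trp53 itself (ENSMUSG00000059552, chr11:69393861-69405375, plus strand) had normalized counts of 2337 and 2027 in serum replicates 1 and 2, against 1538.5 and 741 in 2i replicates 1 and 2. Both serum values were above both 2i values, and the 2i replicates stood further apart than the serum replicates. The log2 fold change, serum over 2i, was 1.03 ± 0.51 (SE, n = 2 per condition), a 2.04-fold difference, with a 95% interval from -0.21 to 2.26 (limma, unadjusted p-value 0.0883, adjusted p-value 0.753). Its size rested on the 2i libraries. Without 2i replicate 1 the log2 fold change was 1.55, and without 2i replicate 2 it was 0.50. Of the 43-base words of its exons, the read length used here, 99.4% occur in no other annotated gene, so that reads were seldom shared.

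Mdm2 (ENSMUSG00000020184, chr10:117125944-117147814, minus strand), the main inhibitor of p53, had normalized counts of 2847 and 3771 in serum against 2672 and 1674 in 2i. The conditions did not overlap, but the lower serum library and the higher 2i library were close to each other, at a log2 difference of 0.09. By the group means of log2 values, the log2 fold change was 0.63 ± 0.48 (SE, interval -0.52 to 1.78, limma, adjusted p-value 0.766). Of the 10 axis genes, Trp53 and Mdm2 were the ones whose direction was kept under all 17 alternative settings run. This adds little to the lack of overlap, which 39.9% of all genes tested had in one direction or the other. Leaving out a library cannot reverse such a gene, and the pseudocounts, filters, trend and block hardly moved the value.

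Mdm4 (ENSMUSG00000054387, chr1:134886422-134921943, minus strand), which binds p53 and holds down its activity, had normalized counts of 2558 and 3436 in serum against 4038 and 1611 in 2i. Its highest and its lowest value were both in 2i. The log2 fold change was 0.22 ± 0.58 (SE; limma, adjusted p-value 0.936), and without 2i replicate 2 it turned to -0.45. Reads of Mdm4 may have been divided with a copy, since 81.6% of its 43-base words are its own and the rest are shared with the pseudogene Mdm4-ps on chromosome X. Mdm4-ps was in the table with normalized counts of 2070 and 1243 in serum against 3211 and 576 in 2i. Summed with it, Mdm4 had 4628 and 4679 in serum against 7249 and 2187 in 2i, a log2 difference of 0.22, so that the pattern over the libraries was that of Mdm4 alone.

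Cdkn2a (ENSMUSG00000044303, chr4:88920377-88940557, minus strand) encodes both P16, an inhibitor of CDK4 and CDK6, and ARF, the inhibitor of MDM2, and the values per gene do not separate them. It had normalized counts of 482 and 177 in serum against 592 and 231 in 2i. Replicate 1 exceeded replicate 2 by 2.73-fold in serum and by 2.56-fold in 2i, more than the conditions differed (limma, log2 fold change -0.34 ± 0.71, SE, adjusted p-value 0.921).

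Among the cell cycle targets, Cdkn1a (ENSMUSG00000023067, chr17:29227924-29237667, plus strand), whose product P21 inhibits cyclin-dependent kinases, had normalized counts of 1089 and 386 in serum against 2825 and 599 in 2i. Its level in serum replicate 1 lay between the 2i values. Its replicates were the farthest apart of the 10 genes in both conditions, followed closely by Cdkn2a in serum and by Zmat3 in 2i. Replicate 1 was 2.82-fold above replicate 2 in serum and 4.72-fold above it in 2i. By the group means of log2 values, Cdkn1a was 2.00-fold higher in 2i (limma, log2 fold change -1.003 ± 0.86, SE, interval -3.07 to 1.06, adjusted p-value 0.781). This was the lowest log2 fold change of the 10 genes. Without 2i replicate 1 the log2 fold change was 0.12, and without 2i replicate 2 it was -2.12. On the log2 scale, serum replicate 1 minus 2i replicates 1 and 2 gave -1.37 and 0.86. For serum replicate 2 the differences were -2.87 and -0.63, and no label ties equal replicate numbers.

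Ccng1 (ENSMUSG00000020326, chr11:40562054-40568813, minus strand) encodes cyclin G1, which recruits a phosphatase to MDM2. It had normalized counts of 6434 and 4820 in serum against 5506 and 7753 in 2i. The conditions overlapped, and here replicate 1 was the higher library in serum and the lower one in 2i. The log2 fold change was -0.23 ± 0.50 (SE; interval -1.42 to 0.96; limma, adjusted p-value 0.924). Cdkn1a and Ccng1, both with a consensus match near the start, thus differed in how the replicates were ordered.

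Of the cell death targets, Bbc3 (ENSMUSG00000002083, chr7:16894965-16903554, plus strand), which encodes PUMA, a BH3-only protein that sets off apoptosis, had normalized counts of 356 and 150 in serum against 546 and 214 in 2i. Replicate 1 was 2.38-fold above replicate 2 in serum and 2.55-fold in 2i, the same order as for Cdkn2a and Cdkn1a. The log2 fold change was -0.57 ± 0.69 (SE; interval -2.22 to 1.09; limma, adjusted p-value 0.851). Bax (ENSMUSG00000003873, chr7:52717065-52722268, minus strand), which forms pores in the outer mitochondrial membrane, had 2312 and 1378 in serum against 1754 and 2648 in 2i. Its highest value was in 2i and its lowest in serum, with the other two between them (limma, log2 fold change -0.27 ± 0.50, SE, interval -1.47 to 0.92, adjusted p-value 0.910).

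Zmat3 (ENSMUSG00000027663, chr3:32233718-32264600, minus strand), a zinc finger protein that binds RNA, had normalized counts of 1695 and 1513 in serum against 2310 and 598 in 2i. The serum replicates lay within 1.12-fold of each other and between the 2i replicates, which were 3.87-fold apart. Its log2 fold change was 0.45 ± 0.68 (SE; interval -1.20 to 2.10; limma, adjusted p-value 0.893), and it ran from -0.53 without 2i replicate 2 to 1.42 without 2i replicate 1. Trp53inp1 (ENSMUSG00000028211, chr4:11083578-11101526, plus strand), whose product binds p53 and takes part in autophagy, had 8117 and 5843 in serum against 6764 and 8381 in 2i. Its libraries were ordered as for Ccng1 and Bax. The log2 fold change was -0.13 ± 0.50 (SE; interval -1.33 to 1.07; limma, adjusted p-value 0.963), the one nearest to 0 of the 10 in this fit.

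**Figure D2:**
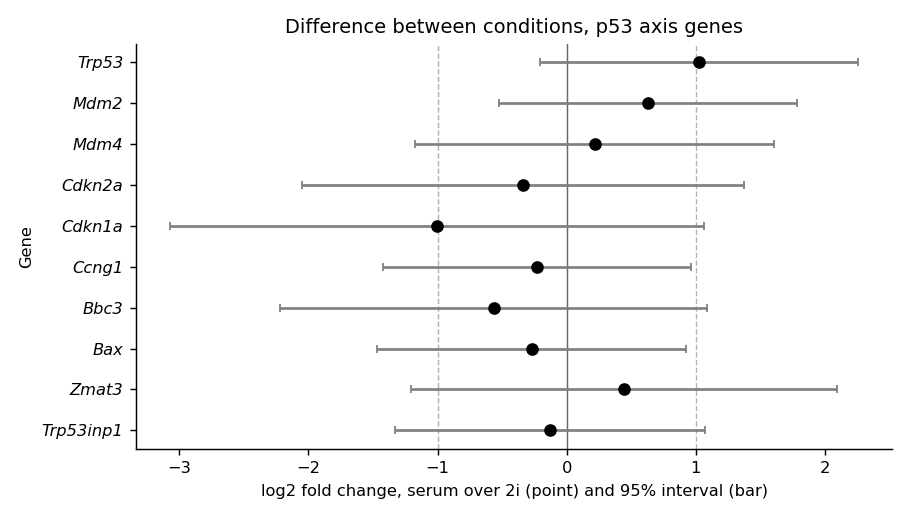
Log2 fold change, serum over 2i, of each p53 axis gene (points) with its 95% interval from limma (bars), and dashed lines at a fold change of 2. All 10 intervals include 0, from Trp53 at 1.03 to Cdkn1a at -1.003.

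In all, 4 axis genes had a log2 fold change above 0 and 6 below, with a median of -0.18 beside 0.0047 over all genes tested. The regulatory genes Trp53, Mdm2, Mdm4 and Cdkn2a had a median of 0.42, and the other 6 genes, all targets, one of -0.25, with 1 of the 6 (Zmat3) above 0. This split did not hold when a library was left out. The median of the 4 regulatory genes was -0.08 when 2i replicate 2 was left out and reached 0.92 without 2i replicate 1, and that of the 6 targets was 0.08 without serum replicate 2, with 4 above 0, and -0.54 without serum replicate 1. For the 10 genes the absolute log2 fold change had a median of 0.39 against 0.55 over all genes. Neither the median nor its sign was stable. It was 0.23 without 2i replicate 1, 0.10 without serum replicate 2, and -0.40 without serum replicate 1. The 4 genes with a consensus match had log2 fold changes of -1.003 (Cdkn1a), -0.23 (Ccng1), -0.13 (Trp53inp1) and 0.45 (Zmat3). The 6 without a match in this window ranged from -0.57 for Bbc3 to 1.03 for Trp53. They include the p53 targets Mdm2, Bax and Bbc3, so the match does not divide targets from other genes.

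By the median, the 2i replicates stood farther apart for the axis genes than for all genes tested, and the serum replicates did not. The median absolute log2 difference over the 10 genes was 0.45 for the serum replicates and 1.19 for those of 2i, against 0.53 and 0.76 over all genes tested. Replicate 1 was above replicate 2 in both conditions for 5 of the 10 genes, namely Trp53, Cdkn2a, Cdkn1a, Bbc3 and Zmat3, and the share over all genes was 25.2%. Ccng1, Bax and Trp53inp1 were higher in replicate 1 in serum and in replicate 2 in 2i, and Mdm2 and Mdm4 had the opposite order. The highest of the 4 values was in 2i replicate 1 for 5 genes and in 2i replicate 2 for 3, and the lowest was in serum replicate 2 for 6 genes and in 2i replicate 2 for 4. Replicate 1 was also the library with the smaller share of protein-coding reads in both conditions and the one in which the 10 largest genes took more of the reads (50.6% against 17.5% in serum, 34.7% against 25.5% in 2i). The part of this in the replicate differences was not tested.

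**Figure D3:**
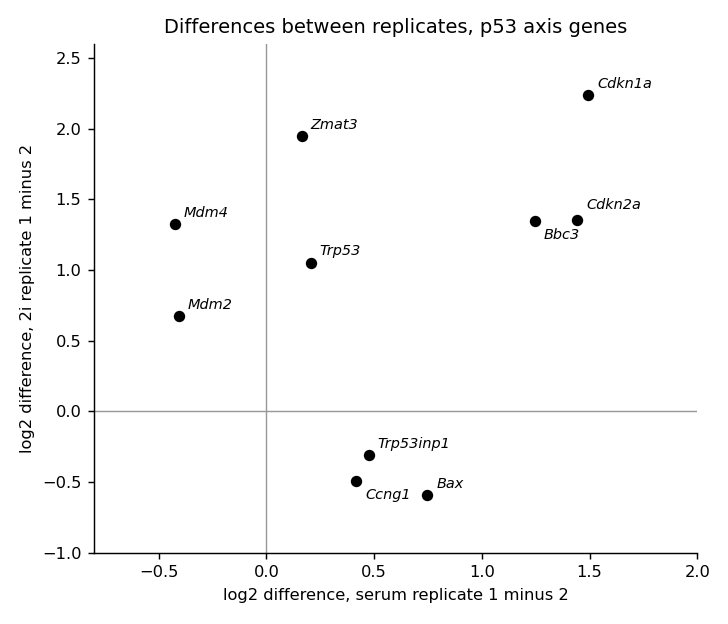
Log2 difference of replicate 1 minus replicate 2 in serum (horizontal axis) and in 2i (vertical axis) for the 10 p53 axis genes. Trp53, Cdkn2a, Cdkn1a, Bbc3 and Zmat3 lie in the upper right, where replicate 1 was higher in both conditions, and Cdkn1a is the farthest out at 1.49 and 2.24.

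Levels of different genes were compared per length, as normalized counts per kb of annotated exons. Ccng1 was highest with 1745 per kb on average over the 4 libraries (1372 to 2208), followed by Bax with 1511 (1029 to 1978) and Trp53inp1 with 1124 (902 to 1294). These 3 targets were above 94.5%, 93.9% and 92.3% of the genes tested, in that order. Mdm4 came next with 829 (459 to 1150), then Cdkn1a with 551 (174 to 1271), Mdm2 with 541 (330 to 744) and Trp53 with 411 (183 to 578). Cdkn2a had 317 (151 to 506), Zmat3 189 (73.9 to 286) and Bbc3 158 (74.5 to 272), the last above 59.0% of the genes tested. Each gene overlapped in its range with the next in this order, so that neighbours did not differ beyond their spread over the libraries. Within every library, however, Ccng1 was above Bax and Bax above Trp53inp1.

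Set against Trp53 in the same library, where the scaling cancels, Cdkn1a per kb was 0.847 and 0.346 times Trp53 in serum and 3.34 and 1.47 times in 2i. By this measure Cdkn1a was below Trp53 in both serum libraries and above it in both 2i libraries. That crossing depends on the lengths, which join the exons of all annotated transcripts (4045 bases for Trp53, 2223 for Cdkn1a). Before division by length, Cdkn1a was below Trp53 in 2i replicate 2 as well, at 599 against 741 normalized counts. The order of the libraries by the ratio does not depend on the lengths. For Mdm2 the ratio was 0.972 and 1.48 in serum and 1.39 and 1.80 in 2i, which overlapped. Mdm4 was 1.26 and 1.95 times Trp53 in serum and 3.02 and 2.50 times in 2i. These ratios share the Trp53 values, which were lower in 2i, and they were chosen with the values known and not tested.

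Beyond the axis, 64 genes of the p53 pathway had been listed in 4 groups, of which 58 were in the table and 57 passed the filter on low values. None was called by limma, edgeR or DESeq2, and at that fold change 2 higher in serum and 1 higher in 2i had an unadjusted p-value below 0.05, which is 5.26% of the 57 beside 5.97% of all genes. Trp73, a relative of p53, had normalized counts of 23.0 and 14.6 in serum against 36.3 and 42.7 in 2i and was left out by the filter. Rprm, Ptprv, Fas, Dram1, Sco2 and Trp63 were not analysed here.

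Of 9 tested genes for arrest and growth control, 6 had a log2 fold change above 0, with a median of 0.08 (-0.06 without serum replicate 1, 0.21 without 2i replicate 1). Plk2, a kinase of the polo family, had normalized counts of 832 and 645 in serum against 1087 and 2191 in 2i. Both 2i values were above both serum values (limma, log2 fold change -1.07 ± 0.51, SE, adjusted p-value 0.753). Gtse1, a microtubule-binding protein of G2- and S-phase that restrains p53, was at the other end, with 2911 and 1862 in serum against 1467 and 1515 in 2i (limma, log2 fold change 0.64 ± 0.45, SE, adjusted p-value 0.763). The G2/M markers given above were higher in serum as well, and their part in the Gtse1 values was not tested.

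The 11 cell death targets had a median of 0.15, with 7 above 0 (-0.04 without 2i replicate 2, 0.33 without 2i replicate 1). Perp, a membrane protein of desmosomes, had normalized counts of 438 and 490 in serum against 546 and 51.4 in 2i. A single library, 2i replicate 2, was low, and without it the log2 fold change turned from 1.46 ± 1.05 (SE; limma, adjusted p-value 0.763) to -0.24. Apaf1, the core of the apoptosome, had 886 and 902 in serum against 1044 and 1311 in 2i, where both values were higher (limma, log2 fold change -0.39 ± 0.42, SE, adjusted p-value 0.835).

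Among the 10 targets in DNA repair and metabolism, 5 were above 0, with a median of -0.04 (0.07 without 2i replicate 2, -0.25 without 2i replicate 1). Ephx1, an epoxide hydrolase that detoxifies reactive compounds, had normalized counts of 444 and 81.6 in serum against 944 and 607 in 2i. It was higher in both 2i libraries, with the lowest value in serum replicate 2 (limma, log2 fold change -1.98 ± 0.83, SE, unadjusted p-value 0.0507, adjusted p-value 0.753). Without serum replicate 2 its log2 fold change was -0.77 and without serum replicate 1 it was -3.20. Slc19a2, a thiamine transporter, had 1361 and 1589 in serum against 964 and 1015 in 2i, and the replicates were close in both conditions (limma, log2 fold change 0.57 ± 0.42, SE, adjusted p-value 0.764).

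The regulators, cofactors and relatives of p53 had the highest median of the 5 lists. Of 27 tested, 25 had a log2 fold change above 0, with a median of 0.46, against 6536 of all 13005 genes above 0. Both serum libraries were above both 2i libraries for 9 (33.3%) against 20.5% of all genes. With the filter at a mean of 200, where all genes leaned to serum as well, 23 of 24 were above 0 against 5044 of 8898. A correction for GC content and exon length, which also leaned all genes to serum, gave 22 of 27 against 7166 of 12953. With edgeR and with DESeq2, 24 of the 27 were above 0, against 6011 and 6093 of all 13005 genes. Leaving out a library gave medians from 0.22 without serum replicate 2 to 0.77 without serum replicate 1, and 20 to 26 of the 27 above 0. Aurka, a mitotic kinase that phosphorylates p53, had normalized counts of 738 and 1159 in serum against 247 and 383 in 2i. The serum libraries were both above the 2i libraries (limma, log2 fold change 1.58 ± 0.49, SE, unadjusted p-value 0.0166, adjusted p-value 0.753). Setd8, which methylates histone H4 and p53, had 1059 and 1592 in serum against 680 and 395 in 2i (limma, log2 fold change 1.32 ± 0.50, SE, unadjusted p-value 0.0350, adjusted p-value 0.753). Both genes are most active in G2- and M-phase, whose markers were higher in serum in these cells, and the part of that in their values was not tested. Rpl11, a ribosomal protein that can bind MDM2, was at the other end with 527 and 2918 in serum against 5548 and 7178 in 2i (limma, log2 fold change -2.35 ± 0.82, SE, unadjusted p-value 0.0264, adjusted p-value 0.753). The serum replicates of Rpl11 were 5.53-fold apart, and leaving out serum replicate 1 or 2 moved its difference to -1.11 or -3.58 on the log2 scale. Of its 43-base words, 81.7% are its own and the rest occur in 6 other annotated genes, so that its reads may have been divided.

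**Figure D4:**
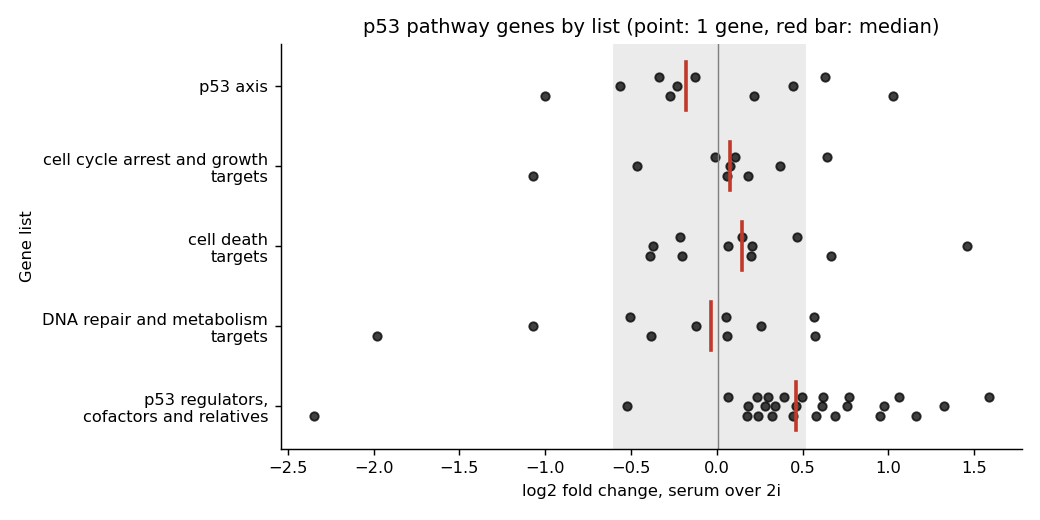
Log2 fold change, serum over 2i, of each tested gene in the p53 axis and in 4 further lists of p53 pathway genes (points), with the median of each list (red bar) and, over all 13005 genes, the median (grey line) and the range of the middle quartiles from -0.60 to 0.51 (grey band). The medians are -0.18, 0.08, 0.15, -0.04 and 0.46 from top to bottom.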

How the data were processed

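Per the study's methods, the authors sequenced rRNA-depleted total RNA from sorted cells as single-end reads of 43 bases, aligned them to mm9 with Bowtie (version not given in the sources used here) and quantified expression with MMSeq, which shares out reads that fit several transcripts. The deposited values are a signal, gene counts divided by a size factor per library. All values (100%, tolerance 0.1) came out as whole reads.

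Gene names and positions were taken from GENCODE vM1 on the same build, which held 14462 genes and lacked 71. The 13005 genes whose mean reached 50 normalized counts in serum or in 2i were tested with limma 3.58.1 (R 4.3.3) with trend on log2(normalized count + 1), which understates changes of low genes, and adjusted by Benjamini-Hochberg over all of them. There was no replicate term, and the scaled unit made edgeR 4.0.16 and DESeq2 1.42.0 on whole reads alternatives. Other settings were pseudocounts, filters, scalings, left-out libraries and a replicate block. A correction for GC content and exon length (mgcv 1.9.3) was chosen after seeing the data.

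The members and gene lists were chosen with earlier results of these data known. Beyond the 10 members, the rule named the genes with the highest and lowest log2 fold change in each of 4 lists and those with an unadjusted p-value under 0.05.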

Additional observations from a re-analysis of the deposited data

How the results depend on the processing

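None of the 10 axis genes was called under any of the 18 alternatives. The count over all genes, 2 by limma, was 4 with a mean of at least 200, 1 without trend, 0 with edgeR, 251 with DESeq2 (73 higher in serum, 178 in 2i), 0 in each fit that left out a library, 776 at an unadjusted p-value under 0.05, and 1 with the GC content and length correction. With the replicate block, the replicate number as a paired term, it was 203 (44 and 159), and 15 with both. The replicate differences of serum and 2i correlated at 0.48 across genes (0.40 after GC correction), but with 2 pairs and no label that ties equal numbers, the samples share only a number. Of the other pathway genes, 3 passed at an unadjusted p-value under 0.05 and 1, Rpl11, with the replicate block (limma, adjusted p-value 0.0210), while 0 did with the block and the GC correction together (Rpl11, limma, adjusted p-value 0.266). The block changed no call of an axis gene.

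Trp53 and Mdm2 kept their direction in all 17 alternatives with a fold change, and the other 8 axis genes did not. For Trp53 and Mdm2 a left-out library could not reverse it, since their conditions did not overlap. Leaving out a library gave log2 fold changes from 0.50 to 1.55 for Trp53, 0.29 to 0.97 for Mdm2, -0.45 to 0.88 for Mdm4, -1.06 to 0.38 for Cdkn2a, -2.12 to 0.12 for Cdkn1a, -0.48 to 0.016 for Ccng1, -1.24 to 0.11 for Bbc3, -0.64 to 0.10 for Bax, -0.53 to 1.42 for Zmat3, -0.37 to 0.11 for Trp53inp1 and -0.24 to 3.15 for Perp. The GC content and length correction, with or without the replicate block, reversed Mdm4 (-0.0067), Cdkn2a (0.057), Bbc3 (0.16) and Bax (0.27), and the cause was not tested. It moved Trp53 to 1.23 (limma, unadjusted p-value 0.0402, adjusted p-value 0.786), Cdkn1a to -0.55, Ccng1 to -0.57 and Trp53inp1 to -0.63. The median of the axis genes was below 0 in 13 of 17 alternatives and above 0 in 4. Pseudocounts, filters, trend and the replicate block alone left it at -0.18, so these settings add nothing to that count. It was above 0 without serum replicate 2, without 2i replicate 1, and with the GC content and length correction, with or without the block. Upper quartile scaling moved the median of all genes to -0.14 and that of the axis to -0.33, that of the arrest targets to -0.07 and the cell death targets to 5 of 11 above 0, and the filter at a mean of 200 moved that of all genes to 0.12.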
